A study of Mus musculus with 12 samples.

Results

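Argonaute (Ago) binding was examined on the mRNA of FoxO3 and of 9 genes known as FoxO targets or as partners in its redox programme. The members were Foxo3, Cat, Gpx1, Sod2, Cited2, Bnip3l, Btg1, Ccng2, Txnip and Sesn1, taken by gene name from the deposited peak table. They held 217 of its 106382 peaks and were 10 of 12102 named genes. The measurements came from HITS-CLIP, a method that crosslinks protein to RNA in the cell, precipitates Ago and sequences what it held, on fetal liver cells of C57BL/6J mouse embryos. The 4 groups were Ago precipitates of embryos lacking the miR-144/451 locus (miR-144/451 KO, here KO), Ago precipitates of wild type (WT) embryos, and control IgG precipitates of KO and of WT embryos, each with 3 libraries. The sources used here do not give fetal age, the number of embryos behind a library or whether libraries came from separate livers. The p-values therefore speak of the spread between libraries, and some of that spread may be technical.

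FoxO transcription factors switch on genes for antioxidant defence, cell-cycle arrest and autophagy, and FoxO3 is the member best known for protecting red-cell precursors from oxidative damage. Its activity is held back when it is kept in the cytoplasm by 14-3-3 proteins, among them the product of Ywhaz, a known target of miR-451. The miR-144/451 locus is switched on by GATA1 in erythroid cells. Not all the listed genes code for antioxidants: Cat, Gpx1 and Sod2 encode enzymes that remove peroxide or superoxide, Sesn1 encodes a stress-inducible sestrin, and Txnip encodes an inhibitor of thioredoxin. Cited2, Btg1, Ccng2 and Bnip3l are FoxO targets that act in transcription, growth arrest and the clearance of mitochondria.

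The microRNAs whose matches near these peaks are described below are printed with the seed, bases 2 to 8, in capitals. They show which letters a matching site must pair with. The first 3 come from the deleted locus on chromosome 11, and miR-16-5p is made elsewhere.
miR-451a: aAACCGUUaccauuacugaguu
miR-144-3p: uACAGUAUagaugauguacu
miR-144-5p: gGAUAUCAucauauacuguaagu
miR-16-5p: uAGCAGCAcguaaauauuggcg
The sequences are from RefSeq, build GRCm38.p6, where miR-451a lies at chr11:78073186-78073207 and miR-144-3p at chr11:78073047-78073066, both on the plus strand. No 2 of these 4 share a seed. A 7-mer-m8 site reads AACGGUU for miR-451a, AUACUGU for miR-144-3p, UGAUAUC for miR-144-5p and UGCUGCU for miR-16-5p.

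The KO Ago libraries 3, 12 and 13 and the WT Ago libraries 1, 9 and 10, named by the number in their title, held between 147969 and 452157 reads in peaks. The 6 IgG libraries held between 24622 and 42916. Levels below are reads per 1000000 reads in the peaks of a library (rpm). Reads in peaks classed as 3′ untranslated (3′UTR) made up 26.8%, 36.8% and 30.2% in KO Ago libraries 3, 12 and 13, against 24.8%, 35.3% and 28.4% in WT Ago libraries 1, 9 and 10. Libraries KO 12 and WT 9 were thus the richest in 3′UTR reads. Of 16 erythroid marker genes, 11 had a peak, and together they took 0.83% to 1.08% of peak reads in KO Ago libraries and 1.2% to 1.48% in WT Ago libraries. The 4 globin genes of that list and Epb42 had no peak under those names. All 15 hepatocyte markers had peaks and took 1.2% to 2.37% in KO Ago libraries and 0.647% to 1.94% in WT Ago libraries, which overlap. In IgG libraries the erythroid markers took 0.852% to 0.995% in KO and 0.825% to 1.11% in WT, which overlap. Which share of a gene's reads comes from which cell type was not tested. In bulk tissue fewer cells of a type and less RNA per cell cannot be told apart, and reads in Ago libraries also depend on Ago binding.

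Together the 217 peaks took 3650, 4740 and 4210 rpm in KO Ago libraries 3, 12 and 13, against 3020, 4070 and 3240 rpm in WT Ago libraries 1, 9 and 10. Reads pooled over a group's libraries (pooled rpm) were 1.21 times as high in KO as in WT Ago libraries (exact 95% interval 1.15 to 1.27), but the library values overlapped. Such intervals cover counting error only. The peaks were short, with a median width of 32 nt (17 to 145), and shallow, with a median of 16 Ago reads over the 6 libraries (5 to 432) where the median of all peaks was 10. By the deposited class, 120 lay in 3′UTRs, 79 in coding sequence (CDS), 12 in introns and 6 in 5′UTRs.

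Where Ago reads lay differed from gene to gene. On Bnip3l, Txnip, Foxo3 and Btg1 most Ago reads lay in 3′UTR peaks, with shares of 87.0%, 85.9%, 78.0% and 77.4%. On Sesn1, Cited2, Sod2, Cat and Ccng2 most lay in coding peaks, with shares of 77.6%, 66.7%, 66.1%, 62.0% and 58.4%. Gpx1, a short gene, had 35.0% of its reads in coding peaks and 39.5% in peaks that the deposited class calls intronic. Its largest such peak, chr9:108340296-108340331, lies inside the RefSeq gene and within its last bases, so that the class is doubtful there.

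The genes also differed in how densely Ago reads covered their peaks. Per kilobase of peak, the mean level was highest for Gpx1, at 2030 rpm in KO Ago libraries and 1620 rpm in WT Ago libraries. In KO Ago libraries Cited2 followed at 739 rpm per kilobase, then Txnip at 523, Cat at 476, Sesn1 at 394, Foxo3 at 386 and Bnip3l at 384. Sod2 at 225, Btg1 at 205 and Ccng2 at 161 rpm per kilobase stood at the low end. Only Gpx1 and Cited2 were set apart from the next gene in every KO Ago library: the ranges of all later neighbours overlapped, except that Bnip3l, at 322 to 492, stayed above Sod2, at 219 to 237. In WT Ago libraries Cat came second at 548 rpm per kilobase, with 469 to 605, and overlapped with Cited2 at 393 to 479 and Txnip at 336 to 484.

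Summed over a gene's peaks, Ago reads rose in KO for Cited2 alone of the 10 genes, and none fell. Cited2 encodes a transcriptional co-regulator that binds CBP/p300 and is needed for fetal liver haematopoiesis. Across all 4441 genes tested, 0.653% rose and 5.29% fell (edgeR quasi-likelihood test, Benjamini-Hochberg adjusted p under 0.05), so that 1 of 10 higher and 0 of 10 lower is a small count either way. At an unadjusted p under 0.05, 2 of the 10 were higher, Cited2 and Bnip3l, where 7.36% of all tested genes were, and none was lower, where 14.1% were. The median log2 change of the 10 genes was 0.35, with 8 above 0 and 2 below, where that of all tested genes was 0.03 with 52.5% above 0. All 3 KO libraries exceeded all 3 WT libraries for 5 of the 10 genes (Gpx1, Sod2, Cited2, Bnip3l, Txnip), where 12.5% of tested genes did so, and none had all KO libraries below, where 12.9% did. Of the 5, Sod2 cleared the filter on low counts only through its KO libraries. The 10 genes were chosen with earlier results known, and these counts are a description of them.

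**Figure D1:**
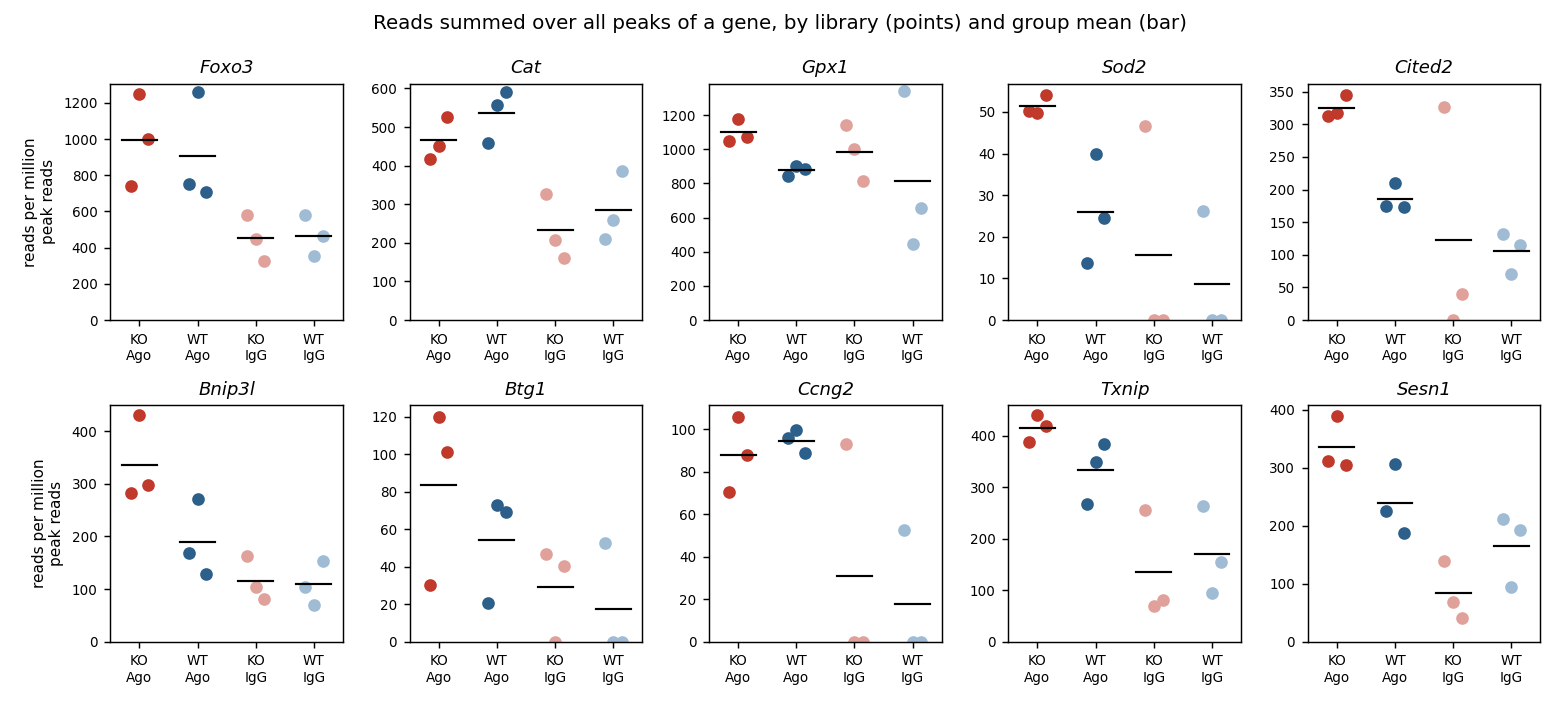
Reads summed over all peaks of each of the 10 genes, in rpm on the vertical axis, for the KO Ago, WT Ago, KO IgG and WT IgG libraries on the horizontal axis. Points are libraries and bars the mean of 3; each panel has its own scale starting at 0. The Cited2 points in KO Ago libraries, 312 to 345, lie above those in WT Ago libraries, 173 to 210.

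Foxo3 itself carried the most peaks, 69, of which 48 were classed as 3′UTR. Of these, chr10:42247539-42247601 lies 65694 nt from the 3′ end of the gene, upstream of peaks classed as coding. Its class is doubtful. Foxo3 had 739, 1250 and 1000 rpm in KO Ago libraries 3, 12 and 13, against 750, 1260 and 705 rpm in WT Ago libraries 1, 9 and 10. The groups overlapped widely, and in each the library richest in 3′UTR reads, KO 12 or WT 9, had the highest value. The log2 change was 0.09 ± 0.21 (SE; edgeR adjusted p = 0.85, n = 3 each). Its sign turned when KO library 12, WT library 1 or WT library 10 was left out or when the 3′UTR share was a covariate, with values of -0.06 to -0.01, and it was -0.43 over the peaks that the authors' filter kept. By feature, Foxo3 3′UTR peaks summed to 774 ± 209 rpm in KO and 703 ± 257 rpm in WT Ago libraries, and its coding peaks to 207 ± 40.7 rpm in KO and 162 ± 53.1 rpm in WT Ago libraries (SD, n = 3 each).

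None of the 3 enzymes that remove reactive oxygen passed the test per gene. Cat encodes catalase, which breaks down hydrogen peroxide in peroxisomes. It had 418, 452 and 527 rpm in KO Ago libraries, against 459, 557 and 591 rpm in WT Ago libraries. The ranges overlapped, and the log2 change was -0.26 ± 0.19 (edgeR adjusted p = 0.43). Over the 2 Cat peaks kept by the authors' filter, the gene was lower in KO, with a log2 change of -0.83 (edgeR adjusted p = 0.042), in a set where 22.3% of 1408 tested genes were lower and 9.02% higher.

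Gpx1 encodes glutathione peroxidase 1, a selenoprotein abundant in red cells. It had 1050, 1180 and 1070 rpm in KO Ago libraries, against 846, 902 and 887 rpm in WT Ago libraries. Every KO library was above every WT library, but the log2 change of 0.28 ± 0.16 did not pass (edgeR adjusted p = 0.32). Sod2, the mitochondrial manganese superoxide dismutase, was thinly covered, with 35 reads in KO and 27 reads in WT Ago libraries. Its levels were 50.3, 49.8 and 54.1 rpm in KO Ago libraries, against 13.7, 39.8 and 24.6 rpm in WT Ago libraries. No KO value overlapped a WT value, and the log2 change was 0.84 ± 0.44 (edgeR adjusted p = 0.28). Sod2 was tested only because its KO libraries cleared the filter on low counts, so this separation adds no support.

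Cited2 had 312, 317 and 345 rpm in KO Ago libraries, against 175, 210 and 173 rpm in WT Ago libraries. The groups were far apart for their spread, and the log2 change was 0.74 ± 0.19 (edgeR adjusted p = 0.036). The call was lost with DESeq2 (adjusted p = 0.14), with no filter on low counts (adjusted p = 0.13), over the peaks without a code of the deleted locus (log2 0.61, adjusted p = 0.17) and when any 1 of the 6 libraries was left out (adjusted p = 0.061 to 0.15), while the log2 change stayed at 0.61 to 0.95 in every setting run. Most of the difference lay in coding sequence, where Cited2 peaks summed to 231 ± 30.9 rpm in KO and 122 ± 17.9 rpm in WT Ago libraries (SD, n = 3 each). In the same libraries the erythroid markers were lower in KO Ago, as given above, while their shares in IgG libraries overlapped between genotypes. The part of these markers in the Cited2 result was not tested.

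Bnip3l encodes NIX, the receptor that clears mitochondria from maturing red cells. It had 282, 431 and 297 rpm in KO Ago libraries, against 168, 272 and 128 rpm in WT Ago libraries. All KO values were above all WT values, though KO 3 and WT 9 nearly met. The log2 change was 0.75 ± 0.24 (edgeR adjusted p = 0.084). It passed without WT library 9 (log2 1.07, adjusted p = 0.03) and with the 3′UTR share as a covariate (0.66, adjusted p = 0.047). It also passed over the 2 peaks kept by the authors' filter (0.98, adjusted p = 0.036), but 1 of these is a peak whose reads cannot be placed with certainty, described below. Without that peak Bnip3l was no longer tested in the kept set, and over all its other peaks the log2 change was 0.63 (adjusted p = 0.14).

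The other growth-arrest genes were low and did not pass. Btg1, an antiproliferative partner of the deadenylase complex, had 30.2, 120 and 101 rpm in KO Ago libraries, against 20.5, 73.0 and 69.0 rpm in WT Ago libraries. Within each group 1 library was far below the rest, and the log2 change was 0.60 ± 0.44 (edgeR adjusted p = 0.45). Ccng2, an atypical cyclin linked to arrest, had 70.4, 106 and 87.9 rpm in KO Ago libraries, against 95.9, 99.5 and 88.7 rpm in WT Ago libraries, a log2 change of -0.15 ± 0.25 (edgeR adjusted p = 0.79). The Ccng2 values overlapped fully.

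The redox regulators also stayed short of the threshold. Txnip had 387, 440 and 419 rpm in KO Ago libraries, against 267, 349 and 384 rpm in WT Ago libraries, with no overlap but only a narrow gap between KO 3 and WT 10. Its log2 change was 0.27 ± 0.19 (edgeR adjusted p = 0.41). Sesn1 had 312, 390 and 304 rpm in KO Ago libraries, against 226, 307 and 187 rpm in WT Ago libraries, overlapping only through KO 13 and WT 9. Its log2 change was 0.42 ± 0.20 (edgeR adjusted p = 0.25), and its reads lay mostly in coding peaks, at 268 ± 39.1 rpm in KO and 179 ± 54.3 rpm in WT Ago libraries (SD, n = 3 each).

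Control IgG gave the background of the precipitation, and no member passed against it in either genotype. On simulated counts this test recovered 24% of 2-fold changes in KO and 15% in WT livers, so a missing call does not exclude a change of that size. In pooled rpm, the 10 genes together were 1.82 times as high in Ago as in IgG libraries of KO livers (95% interval 1.59 to 2.1) and 1.67 times in WT livers (1.46 to 1.92). In the fit, 7 members were tested in KO livers and 0 passed in either direction, where 2.16% of 1988 tested genes were higher and 10.4% lower in Ago. In WT livers 8 were tested and 0 passed, where 2% of 2603 genes were higher and 13% lower. By unadjusted p under 0.05, edgeR gave 1 higher member in KO livers (Sesn1), where 10.1% of genes were higher, and 0 in WT livers, where 8.99% were. It gave 0 lower members in either genotype, where 14.8% of genes in KO livers and 16.3% in WT livers were lower. With no filter Sesn1 passed in KO livers (log2 1.77, edgeR adjusted p = 0.033). In these libraries the 10 genes had between 39 and 134 reads in each of the KO IgG libraries and between 55 and 113 in each of the WT IgG libraries.

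Among the members, Gpx1 was as abundant in IgG as in Ago libraries. In KO livers it had 1050, 1180 and 1070 rpm in Ago libraries 3, 12 and 13, against 1140, 1000 and 812 rpm in IgG libraries 4, 8 and 14. In WT livers it had 846, 902 and 887 rpm in Ago libraries 1, 9 and 10, against 1340, 448 and 654 rpm in IgG libraries 2, 6 and 11. The ranges overlapped in both genotypes, with ratios of pooled rpm of 1.1 in KO (95% interval 0.894 to 1.38) and 1.08 in WT (0.864 to 1.36). The fitted log2 changes of Ago over IgG were -0.55 ± 0.31 in KO (edgeR adjusted p = 0.28) and -0.58 ± 0.32 in WT (adjusted p = 0.26), and they turned positive with no filter, at 0.05 in KO and 0.15 in WT, and in WT without IgG library 2, at 0.16.

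Foxo3 lay above its IgG level in every library. In KO livers it had 739, 1250 and 1000 rpm in Ago libraries, against 583, 450 and 325 rpm in IgG libraries. In WT livers it had 750, 1260 and 705 rpm in Ago libraries, against 579, 354 and 462 rpm in IgG libraries. Pooled rpm was 2.2 times as high in Ago in KO (95% interval 1.63 to 3.03) and 2.13 times in WT (1.6 to 2.9). After TMM scaling the fitted log2 changes were 0.39 ± 0.34 in KO (edgeR adjusted p = 0.52) and 0.24 ± 0.33 in WT (adjusted p = 0.72). Cat was similar, at 1.84 times in KO (1.21 to 2.91) and 1.96 times in WT (1.35 to 2.96), and it too had no overlap between Ago and IgG libraries in either genotype.

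Sesn1 had 312, 390 and 304 rpm in KO Ago libraries, against 140, 69.2 and 40.6 rpm in KO IgG libraries, a fitted log2 change of 1.18 ± 0.49 (edgeR adjusted p = 0.12). In WT livers it had 226, 307 and 187 rpm in Ago libraries, against 211, 94.3 and 192 rpm in IgG libraries, and the fitted value was -0.12 ± 0.44 (edgeR adjusted p = 0.9), which turned positive without IgG library 2, at 0.30, or 11, at 0.17. The KO libraries were separate and the WT libraries were not, but the difference between genotypes was not tested. In KO livers Sesn1 cleared the filter on low counts only through its Ago libraries, so that separation adds no support. Cited2 and Txnip depended on KO IgG library 4, which had 326 rpm of Cited2 where libraries 8 and 14 had 0 and 40.6 rpm. Without that library Cited2 (log2 3.47, edgeR adjusted p = 0.0077) and Txnip (1.86, adjusted p = 0.044) passed in KO livers. In that fit Cited2 cleared the filter on low counts only through its Ago libraries, so its call adds no support.

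At the level of single peaks, 1 of 22 tested member peaks was lower in KO and none was higher, where 17.6% of 2425 tested peaks were lower and 1.4% higher. By unadjusted p under 0.05 the counts were 2 lower, where 20.9% of tested peaks were, and 1 higher, where 5.57% were. The tested peaks belonged to Gpx1 (8), Foxo3 (4), Cat (3), Txnip (3), Cited2 (2) and Sesn1 (2), and they held 43.3% of the members' Ago reads. The other 195 peaks did not reach the filter's level in enough of these 6 libraries, and none of those of Sod2, Bnip3l, Btg1 and Ccng2 passed. The median log2 change of the 22 was 0.12, with 15 above 0 and 7 below, where that of all tested peaks was 0.09 with 55.3% above 0. All KO libraries exceeded all WT libraries at 9 of the 22, where 17.4% of tested peaks did so, and lay below them at 1, where 19.6% did. Some of the 9 cleared the filter on low counts only through their KO libraries. Among them were the largest Sesn1 peak and the second Cited2 peak described below. The 1 peak below, in Cat, cleared the filter only with its WT libraries. The filter thus partly set these counts, and the separation of such peaks adds no support.

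**Figure D2:**
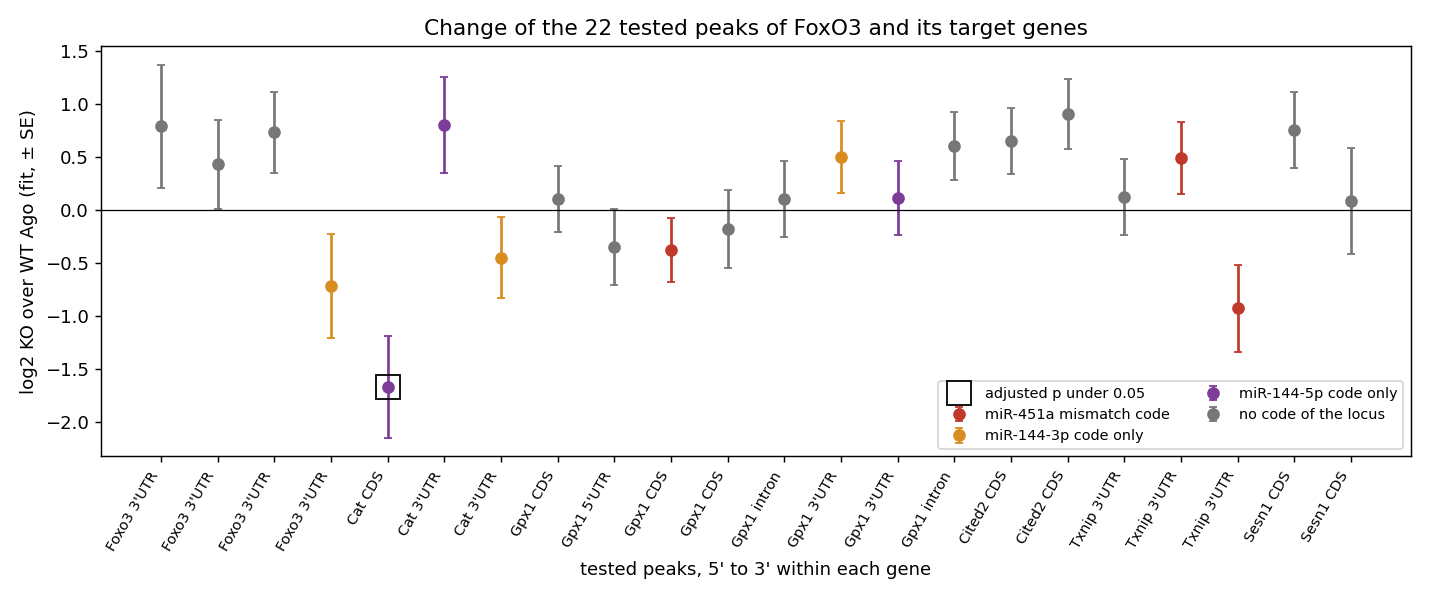
The log2 change of KO over WT Ago reads, with its SE as bars, on the vertical axis for the 22 tested peaks on the horizontal axis, in order along each gene. Colours give the deposited seed code. The boxed Cat coding peak, at -1.67, is the one that passed.

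The lower peak lay in the coding sequence of Cat, at chr2:103463344-103463373 (mm10, minus strand). It had 5.03, 41.0 and 40.5 rpm in KO Ago libraries 3, 12 and 13, against 110, 75.2 and 64.1 rpm in WT Ago libraries 1, 9 and 10. No KO library reached the lowest WT library, and KO library 3, with the smallest value, stood apart from KO libraries 12 and 13. KO library 3 lay below the level of the filter on low counts, so the peak cleared it only with its WT libraries. The separation therefore adds no support. The log2 change was -1.67 ± 0.48 (edgeR adjusted p = 0.019), and in the authors' deposited table it was -2.37 with a false discovery rate of 0.0033. Without KO library 3 it was -1.21 and no longer passed (edgeR adjusted p = 0.056). Set against the other tested peaks of Cat, its log2 change was -1.15 (edgeR's diffSpliceDGE, adjusted p = 0.13), so that the difference from the rest of the gene did not pass.

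That comparison of a peak with the rest of its gene called none of the 22 member peaks in either direction, where 8.01% of 1398 peaks were lower and 3.58% higher. By edgeR's unadjusted p under 0.05 there were 2 below, where 12.4% of those peaks were, and 1 above, where 9.59% were. The higher one, named after its values were seen, was a Cat 3′UTR peak, chr2:103454606-103454652, with 60.4, 49.8 and 54.1 rpm in KO Ago libraries, against 10.3, 42.0 and 19.7 rpm in WT Ago libraries. It rose against the other Cat peaks only by the limma-voom version of the test (log2 1.94, adjusted p = 0.033) and without WT library 9 (2.02, edgeR adjusted p = 0.043). In the main test its value was 1.33 (adjusted p = 0.07). This 3′UTR peak cleared the filter on low counts only through its KO libraries. The limma-voom version also called the coding peak above (-2.04, adjusted p = 0.026).

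Coding and 3′UTR peaks of Cat leaned in opposite directions. Its 19 coding peaks summed to 246, 240 and 297 rpm in KO Ago libraries, against 336, 323 and 444 rpm in WT Ago libraries, and 13 of them had a lower rate in KO. Its 9 3′UTR peaks summed to 166, 211 and 230 rpm in KO Ago libraries, against 120, 230 and 143 rpm in WT Ago libraries, and 3 of them had a lower rate in KO. The coding sums did not overlap between genotypes and the 3′UTR sums did. This split by feature was chosen after the values were seen and was not tested.

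**Figure D3:**
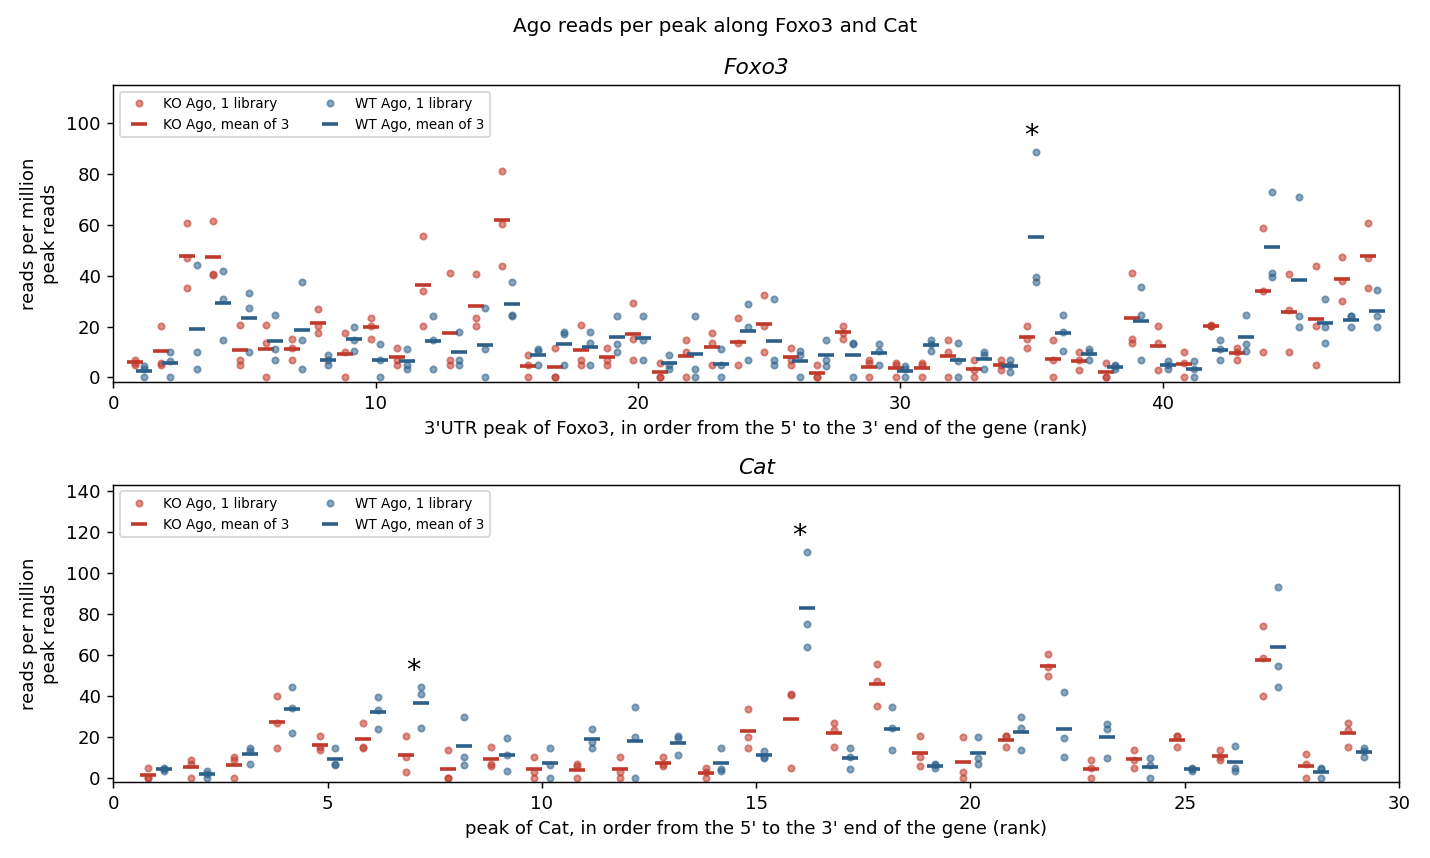
Ago reads in rpm, on the vertical axis, at the 48 Foxo3 peaks classed as 3′UTR (top) and the 29 Cat peaks (bottom), in order along the gene on the horizontal axis. Points are single Ago libraries and dashes the mean of 3, KO left of WT at each peak. Stars mark the peaks lower in KO when no filter on low counts was used. Most peaks of both genes overlap between KO and WT.

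When all 106381 peaks with an Ago read in these libraries were tested without a filter, 3 member peaks were lower and 0 higher, where 2.54% were lower and 0.0329% higher. Of these, 1 was the Cat coding peak (log2 -1.75, edgeR adjusted p = 0.025). Besides it, a peak in the 3′UTR of Foxo3 and a further coding peak of Cat passed. They fall outside the rule for named peaks and were chosen after their values were seen.

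The Foxo3 peak, chr10:42183268-42183308 (mm10, minus strand), lies 1423 nt from the 3′ end of the RefSeq gene. It had 15.1, 11.7 and 20.3 rpm in KO Ago libraries, against 37.7, 88.5 and 39.4 rpm in WT Ago libraries. These are 10 reads in KO and 59 reads in WT, a ratio of pooled rpm of 0.233 (95% interval 0.106 to 0.46), with 1 read over the 6 IgG libraries. All KO values lay below all WT values, and the highest WT value was in WT 9. The log2 change without a filter was -2.25 ± 0.54 (edgeR adjusted p = 0.0091), and in the authors' deposited table it was -2.39 with a false discovery rate of 0.0023. The peak carries a deposited code for a miR-451a seed match with 1 mismatch (code 7, codes 2 to 7 naming the mismatched position). With no filter, the comparison of a peak with the rest of its gene called neither this peak nor any other member peak. The same comparison called the Foxo3 peak lower without KO library 3 (log2 -2.41, diffSpliceDGE adjusted p = 0.016), KO library 13 (-2.34, adjusted p = 0.029) or WT library 10 (-2.22, adjusted p = 0.017). In those fits it cleared the filter only through its WT reads, so these calls add no support.

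The Cat coding peak, chr2:103473043-103473071, carries a miR-451a mismatch code too (code 5). It had 10.1, 2.93 and 20.3 rpm in KO Ago libraries, against 41.1, 24.3 and 44.4 rpm in WT Ago libraries. With 6 reads in KO and 32 in WT, the ratio of pooled rpm was 0.258 (95% interval 0.0882 to 0.626). The groups did not overlap, though KO 13 came close to WT 9. The log2 change without a filter was -2.19 ± 0.64 (edgeR adjusted p = 0.044).

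Of the 217 peaks, 72 (33.2%) had a deposited code of at least 1 of the 3 microRNAs of the locus, where 40.7% of all peaks had one. A miR-451a code was as common as in the whole table, with 26 peaks (12.0%) against 11.9% of all peaks. All 26 had mismatch codes and none had a 6-mer or longer, which 1.03% of all peaks had. For miR-144-3p, 34 peaks (15.7%) had a code, where 26.3% of all peaks had one, and 3 (1.38%) had a 7-mer or longer, where 1.66% had. For miR-144-5p, 23 (10.6%) had a code, the same share as of all peaks, and 2 (0.922%) had a 7-mer or longer, where 0.404% had. These shares were not tested.

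The 5 peaks with a 7-mer or longer were shallow. Both intronic Foxo3 peaks with a miR-144-3p match, chr10:42234881-42234919 (7-mer-m8) and chr10:42261634-42261654 (8-mer), had 1 and 0 reads in KO, against 7 and 6 reads in WT Ago libraries. The Bnip3l 5′UTR peak with a miR-144-3p 7-mer-m8, chr14:67008825-67008855, had 13 reads in KO and 8 reads in WT Ago libraries. For miR-144-5p, the Foxo3 3′UTR peak chr10:42184859-42184886 (7-mer-m8) had 4 reads in KO and 14 in WT, and the Cat coding peak chr2:103474389-103474409 (7-mer-A1) had 12 in KO and 8 in WT. Thus 3 of the 5 had fewer reads in KO and 2 had more, and none passed the filter on low counts.

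The members' peaks were also summed by code, as a description with no test between classes. The 23 peaks with a miR-451a code of 5 to 7 had 347, 405 and 412 rpm in KO Ago libraries, against 490, 533 and 473 rpm in WT Ago libraries. The groups did not overlap, and the ratio of pooled rpm was 0.769, where it was 0.612 over all peaks of the table with such codes. These sums include the Foxo3 3′UTR peak and the Cat coding peak with mismatch codes described above, which were chosen after their values were seen. Those peaks had 10 and 6 reads in KO, against 59 and 32 reads in WT Ago libraries, and weigh on the separation. The 3 member peaks with a miR-451a code of 2 to 4 went the other way, with a ratio of 1.92, where all such peaks gave 0.827. Over all 26 member peaks with a miR-451a code the ratio was 0.853, where all peaks with a mismatch code gave 0.65. The 145 peaks with no code of the locus had 2540, 3150 and 2890 rpm in KO Ago libraries, against 1880, 2610 and 2050 rpm in WT Ago libraries, a ratio of 1.29 where all such peaks gave 1.15, and the libraries overlapped. The 34 peaks with a miR-144-3p code had 533, 765 and 642 rpm in KO Ago libraries, against 452, 604 and 463 rpm in WT Ago libraries. Their libraries overlapped too, and their ratio was 1.27, where all peaks with such codes gave 0.851. The 9 peaks with a miR-16-5p match of 7-mer or longer had 463, 299 and 304 rpm in KO Ago libraries, against 363, 254 and 276 rpm in WT Ago libraries, and overlapped.

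**Figure D4:**
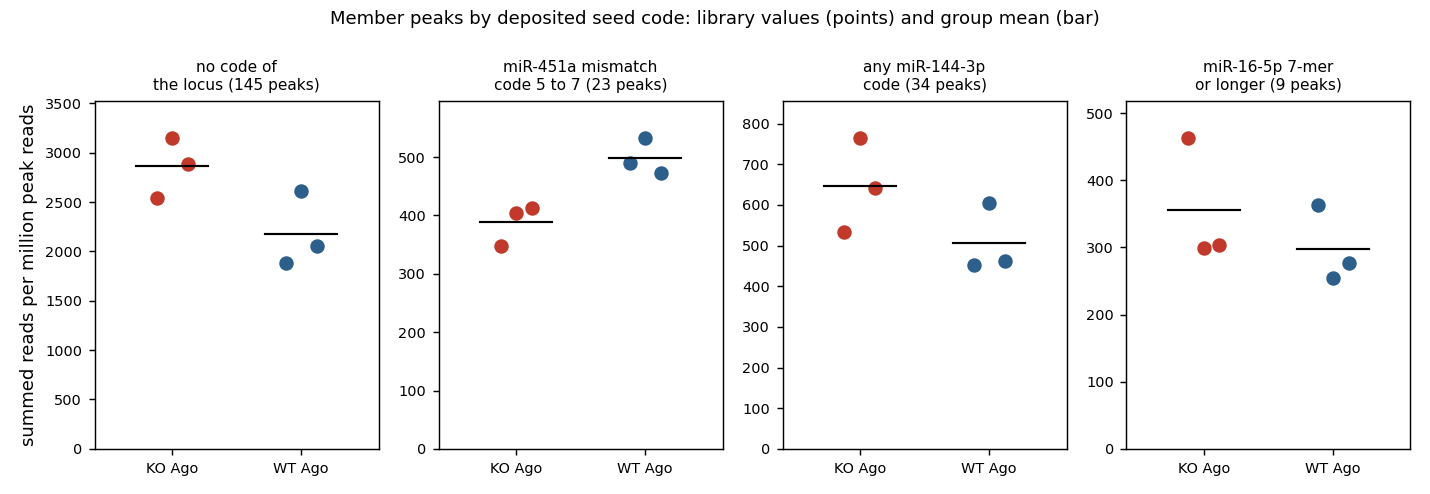
Summed rpm, on the vertical axis, over the members' peaks in 4 classes of deposited seed code, for KO Ago (left) and WT Ago (right) libraries. Points are libraries and bars the mean of 3; each panel has its own scale starting at 0. For miR-451a codes 5 to 7 the KO values, 347 to 412, lie below the WT values, 473 to 533. That gap rests on a Foxo3 and a Cat peak chosen after their values were seen.

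Within the miR-451a class the peaks were not alike. Of the 23 peaks, 13 had a lower rate in KO and 10 a higher one, so that 56.5% were lower, where 66.3% of all peaks with such codes were. Of the 5 member peaks with code 7, 4 had a lower rate in KO, and of all peaks with that code 83.7% did. A drop to 0 was seen at an intronic Foxo3 peak with code 7, chr10:42236407-42236440, which had 0 reads in KO against 11 in WT Ago libraries, and it did not pass without a filter (edgeR adjusted p = 0.067). The Cat 3′UTR peak chr2:103454556-103454597 (code 6) had 5.03, 8.8 and 0 rpm in KO Ago libraries, against 24.0, 26.5 and 9.86 rpm in WT Ago libraries. Its groups did not overlap, but it did not pass either (edgeR adjusted p = 0.14). Both were chosen after their values were seen.

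The 3 tested member peaks with a miR-451a code did not pass, and they are named for that code after their values were seen. The Txnip 3′UTR peak chr3:96561701-96561736 (code 7) had 25.2, 20.5 and 47.3 rpm in KO Ago libraries, against 34.2, 46.4 and 64.1 rpm in WT Ago libraries. The ranges overlapped, and the log2 change was -0.93 ± 0.41 (edgeR adjusted p = 0.16). The Gpx1 coding peak chr9:108339494-108339536 (code 7) had 116, 117 and 101 rpm in KO Ago libraries, against 137, 104 and 143 rpm in WT Ago libraries, a log2 change of -0.38 ± 0.30 (adjusted p = 0.46). Over all tested peaks with code 7, 37 of 52 were lower, with a median log2 change of -2.60. Beside these, a Txnip 3′UTR peak, chr3:96561469-96561502, has code 6 for both miR-451a and miR-144-3p and had 80.5, 64.5 and 108 rpm in KO Ago libraries, against 61.6, 39.8 and 49.3 rpm in WT Ago libraries (log2 change 0.49 ± 0.34, adjusted p = 0.42).

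Among the peaks with most Ago reads, 1 per gene, 6 were tested and none of them passed in KO against WT. On Foxo3 it was a 3′UTR peak, chr10:42182300-42182365, with an offset 6-mer of miR-144-3p. It had 10.1, 58.6 and 33.8 rpm in KO Ago libraries, against 41.1, 73.0 and 39.4 rpm in WT Ago libraries, a log2 change of -0.72 ± 0.49 (edgeR adjusted p = 0.41). On Cat it was a 3′UTR peak, chr2:103454129-103454165, with 40.2, 58.6 and 74.3 rpm in KO Ago libraries, against 54.8, 92.9 and 44.4 rpm in WT Ago libraries (-0.45 ± 0.38, adjusted p = 0.51). Both overlapped between the genotypes, and the Cat value moved to 0.01 without WT library 9. The largest Gpx1 peak, named above for its doubtful class, had 282, 372 and 385 rpm in KO Ago libraries, against 158, 241 and 182 rpm in WT Ago libraries. Every KO value there was above every WT value, and the log2 change was 0.60 ± 0.32 (adjusted p = 0.25).

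On Cited2 the largest peak was a coding one, chr10:17724101-17724128, with 106, 90.9 and 108 rpm in KO Ago libraries, against 51.4, 48.7 and 69.0 rpm in WT Ago libraries (log2 change 0.65 ± 0.31, edgeR adjusted p = 0.21). The other tested Cited2 peak, chr10:17724330-17724360, had 90.5, 70.4 and 122 rpm in KO Ago libraries, against 44.5, 39.8 and 39.4 rpm in WT Ago libraries (0.90 ± 0.33, adjusted p = 0.078). Neither carries a code of the deleted locus, and both were separate between genotypes. The second passed when scaled by library size alone (1.13, adjusted p = 0.029) and with the 3′UTR share as a covariate (0.92, adjusted p = 0.034). It cleared the filter on low counts only through its KO libraries, and it was named after its values were seen.

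On Sesn1 the largest peak was a coding one, chr10:41894962-41895017, with 75.5, 70.4 and 94.6 rpm in KO Ago libraries, against 27.4, 53.1 and 34.5 rpm in WT Ago libraries (log2 change 0.75 ± 0.36, edgeR adjusted p = 0.21). On Txnip it was a 3′UTR peak, chr3:96561206-96561284, with 65.4, 93.8 and 60.8 rpm in KO Ago libraries, against 41.1, 64.1 and 78.9 rpm in WT Ago libraries (0.12 ± 0.36, adjusted p = 0.86). The Sesn1 peak was separate between genotypes and the Txnip peak was not, and the sign of the Txnip value turned without KO library 12 or WT library 1.

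The largest Bnip3l peak, a 3′UTR peak at chr14:66987509-66987549, had the same counts in all 12 libraries as a peak of Gm10480 on chromosome 12. Its reads may belong to either gene and its values are uncertain. It had 50.3, 41.0 and 33.8 rpm in KO Ago libraries, against 3.42, 22.1 and 0 rpm in WT Ago libraries. In the authors' deposited table its log2 change was 2.39 with a false discovery rate of 0.0083, and without a filter the edgeR value was 1.59 (adjusted p = 0.17). For Sod2, Btg1 and Ccng2 the largest peak ranged from 6.63 to 35.2 rpm over the 6 Ago libraries and none was tested. The authors' deposited table of 6651 peaks held 12 of the members' peaks, of which, at a false discovery threshold of 0.05, 2 fell and 1 rose, where 35.7% of the table's peaks were lower and 1.29% higher.

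Of 72 further genes of the FoxO and antioxidant pathways, 64 had a peak and 46 were tested, and 1 was lower and 0 were higher per gene, against the 5.29% and 0.653% of all genes given above. By edgeR's unadjusted p under 0.05, 8 of the 46 were lower, where 14.1% of all tested genes were, and 7 were higher, where 7.36% were. These counts were not tested. The lower gene was Gabarapl1, an ATG8-family autophagy gene and FoxO target, with 15.1, 11.7 and 13.5 rpm in KO Ago libraries, against 75.3, 81.8 and 64.1 rpm in WT Ago libraries. Its groups were far apart, with a log2 change of -2.53 ± 0.43 (edgeR adjusted p = 0.0032). Gabarapl1 cleared the filter on low counts only through its WT libraries, so the separation adds no support. With no filter its log2 change was -2.52 (edgeR adjusted p = 0.00075). Among 21 tested FoxO factors and regulators 0 passed, with a median log2 change of -0.09. Among 17 tested other antioxidant genes 0 passed, with a median of -0.03, and among 8 tested other FoxO targets the median was 0.17.

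Ywhaz, which did not pass and is named outside the rule for its known place between miR-451 and FoxO3, had 252, 299 and 304 rpm in KO Ago libraries, against 428, 416 and 365 rpm in WT Ago libraries. All KO libraries were below all WT libraries, but the log2 change of -0.56 ± 0.19 did not pass (edgeR adjusted p = 0.098). Over the peaks kept by the authors' filter it passed (-1.10, adjusted p = 0.0031), in the set where 22.3% of genes were lower.

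Across the 12 libraries, the genes whose log2 level followed Foxo3 most closely, out of 2654, were Evi5 (Pearson r = 0.914), Wapal (0.881) and Mcm4 (0.879). The 12 points include Ago and IgG libraries and share their depth and 3′UTR content, so that the values only describe these libraries.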

How the data were processed

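The authors' deposited peak table gives raw counts of reads per peak and library, a read counting when it overlaps a peak by at least 16 bases per the deposited column description. The submitters' processing notes name build mm10 and the tools STAR, cutadapt, limma and bedtools; the sources used here do not give what each did or its version. Also deposited are seed codes, a score per microRNA for the best seed match near a peak (2 to 7 a match with 1 mismatch, 8 an offset 6-mer, 11 a 6-mer, 12 a 7-mer-A1, 13 a 7-mer-m8, 14 an 8-mer), the authors' IgG to Ago ratio of peak heights, and, on fewer peaks, their log2 fold changes with p-values and false discovery rates, which are given as the authors' own.

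Counts were tested as deposited, per peak and summed per gene, with edgeR 4.0.16 in R 4.3.3 (quasi-likelihood test, TMM, filterByExpr with a minimum count of 10 and total of 15, Benjamini-Hochberg over all features, threshold 0.05), using the 6 libraries of each comparison. A peak was set against the tested peaks of its gene with diffSpliceDGE. The test was run on simulated counts first. For KO against WT Ago libraries it recovered 48% of 2-fold changes per gene and 32% per peak. Levels are rpm without TMM; over all tested peaks the median log2 change was 0.09 with TMM and 0.30 under scaling by library size alone. Alternatives were DESeq2 1.42.0 and limma 3.58.1 (voom), other size factors, no filter, each library left out, only peaks kept by the authors or without a code of the locus, and, added after seeing the data, the 3′UTR share as a covariate and the removal of 1 Bnip3l peak with a twin. All 10 members matched a RefSeq symbol. Named peaks are those called, the peak with most Ago reads of each member, and those with a 7-mer or longer of the locus; named pathway genes are those called. Ywhaz and further peaks named outside this rule are marked as such in the text. The members and lists were chosen with earlier results of these data known. Of 75 member peaks checked, 1 had a twin with identical counts. Sequences under the peaks were not used here.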

Additional observations from a re-analysis of the deposited data

How the results depend on the processing

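No paired analysis was possible because the library numbers are not shared between groups. Member peaks lower in KO numbered 1, against 3 with no filter and 1 to 3 with 1 library left out. With a library left out, the added peaks cleared the filter only through their WT reads, so those calls add no support. The calls added with no filter were at the same peaks and are no separate support. Higher member peaks numbered 0, against 1 by library size alone and 1 with the 3′UTR covariate. Both calls were the same Cited2 peak, which cleared the filter only through its KO reads, so they add no support either. Lower member genes numbered 0, against 1 over the peaks kept by the authors, also without the Bnip3l peak with a twin. Higher member genes numbered 1, against 0 with DESeq2, 0 with no filter, 0 over peaks without a code of the locus, 2 with the covariate, 2 over the kept peaks (1 without that peak) and 0 to 1 with 1 library left out. Member genes higher in Ago than IgG in KO numbered 0, against 1 with no filter and 0 to 2 with 1 library left out. Of those 2, Cited2 cleared the filter only through its Ago libraries, so its call adds no support. For a peak against the rest of its gene, limma-voom gave 1 lower and 1 higher where edgeR gave 0, and leaving out 1 library gave 0 to 1 in each direction. Pathway genes lower in KO numbered 1, against 5 with the covariate (Gabarapl1, Cab39, Pdpk1, Prdx4, Prkaa1), 4 over the kept peaks, 0 over peaks without a code and 1 to 3 with 1 library left out; higher ones numbered 0, against 3 over the kept peaks and 0 to 1 with 1 library left out. The kept set tested 18 pathway genes, and in it 22.3% of all genes were lower and 9.02% higher; both pathway counts were the same without the Bnip3l peak.

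Signs turned only for values that did not pass. Foxo3 per gene gave -0.06 to 0.34 with 1 library left out (-0.04 without KO 12, -0.01 without WT 1, -0.06 without WT 10), -0.01 with the covariate and -0.43 over the kept peaks (-0.47 without the Bnip3l peak). For Ago over IgG in WT, Cat gave -0.21 over the kept peaks, Gpx1 0.15 with no filter and -0.58 to 0.16 with 1 library left out (0.16 without IgG 2), Cited2 -0.04 by voom and -0.30 over the kept peaks, Bnip3l -0.07 by voom, and Sesn1 0.08 by library size alone, 0.64 with no filter and -0.09 to 0.30 with 1 IgG library left out (0.30 without IgG 2, 0.17 without IgG 11). In KO, Gpx1 gave 0.05 with no filter and Cited2 -0.32 over the kept peaks. The Cat 3′UTR peak with most reads gave -0.71 to 0.01 with 1 library left out (0.01 without WT 9), and that of Txnip -0.22 to 0.32 (-0.18 without KO 12, -0.22 without WT 1). The causes were not tested. Of the other single values, 356 kept both their sign and their side of the threshold, 10 lost their call and 8 gained one. Depth and the spread of reads over libraries limited the peak tests: 195 of 217 member peaks had too few reads in too many libraries to pass the filter. The lowest total of a tested member peak was 55 Ago reads, while the untested Foxo3 peak chr10:42183268-42183308 had 69.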
